A study of Mus musculus with 56 samples.

Results

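Whisker deprivation was examined in ribosome-bound RNA of astrocytes from mouse barrel cortex, the cortical area that maps the whiskers. The libraries were chosen by their titles: all 10 bound libraries of the astrocyte line, 5 deprived and 5 control, out of 56 libraries in the series. The mice were of the Aldh1l1::eGFPL10a line, in which the Aldh1l1 promoter places an EGFP tag on the ribosomal protein L10a of astrocytes. Whiskers on the right were cauterised at postnatal day 4 and the mice were killed 24 h later, at postnatal day 5. The labels give the same right-sided lesion for the control pieces, and no group from uninjured mice was analysed here. Titles of this line do not give the side of the brain of a piece. In the Cx3cr1-knockout line of the series, deprived titles carry an L and control titles an R. If that holds here, side of the brain and deprivation cannot be told apart. This line received no tamoxifen. Each group held 3 female and 2 male pieces, and the labels do not name the animal of a piece, so p-values measure the spread between pieces. Tagged polysomes were pulled down with antibody to GFP (translating ribosome affinity purification, TRAP). The unbound RNA left over, also 5 deprived and 5 control libraries, served for comparison.

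Astrocytes clear glutamate and potassium around synapses, convert glutamate to glutamine, secrete factors that organise synapses and, in the first postnatal week, still divide and extend processes. Their identity is set by transcription factors such as Sox9 and the nuclear factor I (NFI) family. After injury they raise intermediate filaments, of which Gfap is the standard marker. Loss of sensory input through the whiskers leads, over days, to removal of thalamocortical synapses in the barrel cortex, a process in which Wnt and fractalkine signalling between neurons, astrocytes and microglia have been studied.

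The bound libraries held 10928457 to 28584281 gene counts. Their RNA was enriched in astrocyte markers. Levels are given as CPM, the usual unit of counts relative to library size, here scaled by the trimmed mean of M-values (TMM). Aldh1l1, a folate enzyme used as a pan-astrocyte marker, had a median of 46.3 CPM in bound and 11.9 CPM in unbound RNA, a log2 ratio of 1.93 ± 0.06 (SE). For Gfap the log2 ratio was 2.59 ± 0.09, and for the glutamate transporter gene Slc1a3 it was 1.12 ± 0.05, with no overlap between bound and unbound libraries for any of these markers. RNA of other cells remained. The neuronal vesicle gene Snap25 stood at 791 to 1042 CPM in bound RNA against 1814 to 2133 CPM in unbound RNA, Mbp of oligodendrocytes at 33.7 to 43.6 CPM, and the microglial gene Cx3cr1 at 1.54 to 4.18 CPM. Not all neuronal messages were depleted. The neurofilament gene Nefl stood at 2541 to 4923 CPM in bound against 156 to 223 CPM in unbound RNA, a log2 ratio of 4.21 ± 0.09 that exceeds those of the 3 astrocyte markers, and Nefm, whose exons overlap those of Nefl, had 2.15 ± 0.09. In all, 5778 of 18324 genes (31.5%) were higher and 5060 (27.6%) lower in bound than in unbound RNA at an adjusted p under 0.05 in edgeR's quasi-likelihood test. In bulk RNA of this kind, fewer astrocytes in a piece and less RNA per astrocyte cannot be told apart. Deprived library 5 stood apart: it was the shallowest, detected the fewest genes (23984, against 28561 to 35026 in the others), and lay alone at one end of the first principal component, which carried 25.8% of the variance.

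**Figure D1:**
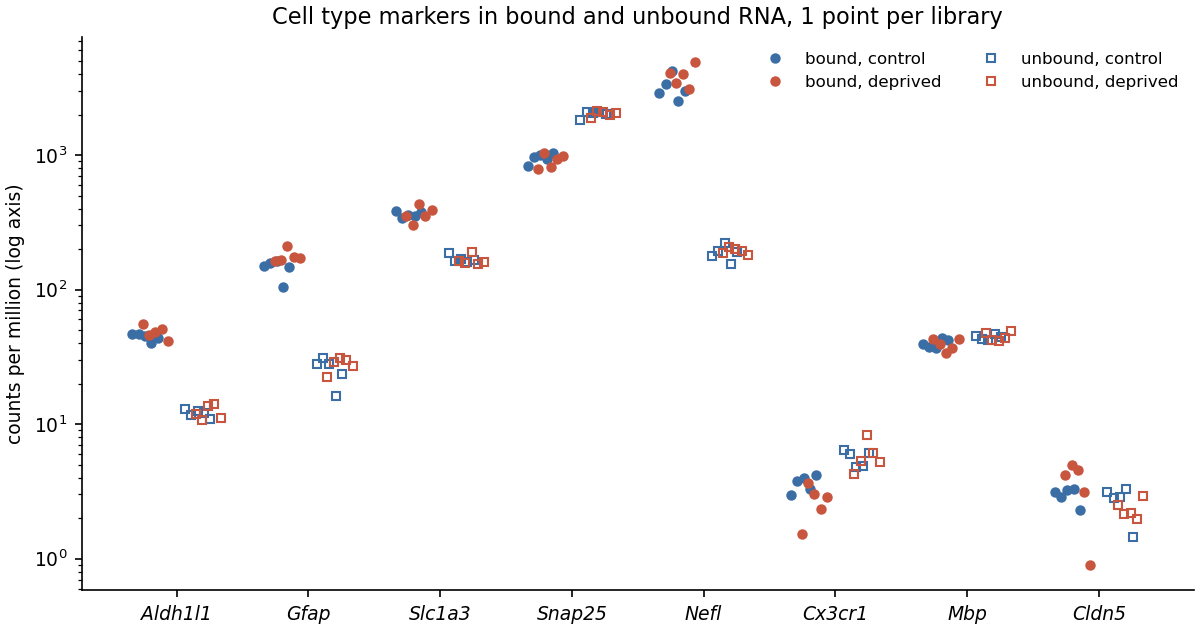
Levels of marker genes of astrocytes (Aldh1l1, Gfap, Slc1a3), neurons (Snap25, Nefl), microglia (Cx3cr1), oligodendrocytes (Mbp) and endothelium (Cldn5) in CPM on a log axis, 1 point per library, filled for bound and open for unbound RNA, blue for control and red for deprived. The 3 astrocyte markers lie higher in every bound than in any unbound library, as does the neuronal gene Nefl, and Snap25 lies lower.

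The question of the comparison was which astrocyte messages differ 24 h after whisker loss. Of 17685 genes tested, 0 (0%) passed an adjusted p of 0.05, and the smallest adjusted p was 0.674. At an unadjusted p under 0.05 there were 1067 genes (6.03%), 558 higher and 509 lower in deprived libraries. DESeq2's Wald test called 7 genes, 5 higher (Nr4a2, Zbtb20, Tcf4, Gse1, Ncoa4) and 2 lower (Rtn4, Serinc1), and limma-voom called 0, with 1130 genes at an unadjusted p under 0.05. The data also limit the size of the effects. Among the 10117 genes with a mean of at least 3 log2 CPM, the 95% interval lay within a 2-fold change for 99.6% and within a 1.5-fold change for 97% of genes. The median size of the log2 fold change among these genes was 0.074, its 95th percentile was 0.247, and only Fign had a log2 fold change beyond 1 in size. Over all genes tested the median size was 0.107, and 82.3% of the intervals lay within 2-fold and 64.3% within 1.5-fold. Among the 1385 genes enriched at least 2-fold in bound RNA the limit was looser. Their intervals lay within 2-fold for 66.2% and within 1.5-fold for 42.2%, with a median SE of 0.232. Every deprived library lay above every control library for 114 genes (0.645%) and below for 99 genes (0.56%).

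**Figure D2:**
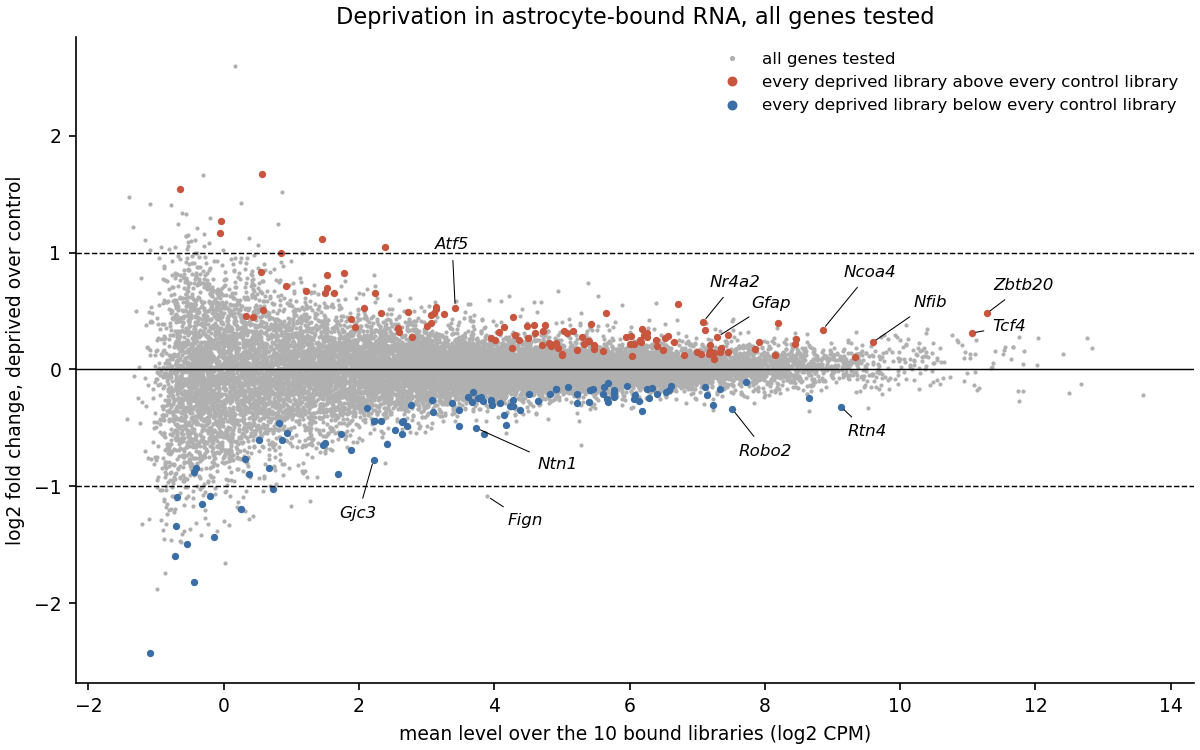
Log2 fold change of deprived over control against the mean level in log2 CPM over the 10 bound libraries, 1 point per gene for the 17685 genes tested, with dashed lines at a 2-fold change. Red marks the 114 genes whose deprived libraries all lie above the control libraries, blue the 99 whose deprived libraries all lie below. Beyond a mean of 3 log2 CPM, Fign alone lies outside the dashed lines.

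Transcription factors listed for the astrocyte lineage had values on one side of 0. All 12 of the 12 factors listed had a fold change above 0 in deprived pieces. The median log2 fold change was 0.21 beside 0.00039 over all genes tested. Of these 12, 8 (66.7%) had an unadjusted p under 0.05, beside 6.03% of all genes. For 5 every deprived library lay above every control library, beside 0.645% of all genes. None passed the adjusted test. The list was chosen with earlier results of these data known, so these shares describe it and are not a test. Zbtb20, a zinc finger repressor that promotes astrocyte formation (GRCm38 chr16:42875881-43642602, plus strand), was at 2525, 2272, 2292, 1623 and 1938 CPM in controls 1 to 5 and at 2773, 2660, 2678, 3203 and 3533 CPM in deprived pieces 1 to 5. Every deprived value exceeded every control value, and the log2 fold change was 0.48 ± 0.11 (SE, n = 5 per group). It was 0.40 without control 4, which held the lowest value and stood apart in markers of neighbouring tissue (below). Its exons overlap those of Gm9968 and Mir568, which the counts may not separate. Exon overlaps also make the values of Gse1 (with Gins2), Ccne2 (Ints8), P2ry12 (Med12l), Glul (Teddm2), Gpr17 (Lims2), Cdh8, Kcnj9, Wnt7b, Wnt5a, Axin2, Bcl2, Cx3cr1, Aldh1l1 and Hsp90b1 (noncoding or predicted genes) uncertain. Tcf4, a basic helix-loop-helix factor and partner of proneural and glial factors, ranged from 1731 to 2031 CPM in control and from 2197 to 2647 CPM in deprived pieces (0.31 ± 0.08).

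The NFI genes, which switch on glial genes at the onset of gliogenesis, had fold changes of similar size. Nfib stood at 764, 724, 726, 687 and 677 CPM in controls 1 to 5 and at 791, 789, 799, 861 and 962 CPM in deprived pieces 1 to 5, again without overlap (0.23 ± 0.07). Nfia (0.29 ± 0.09) and Nfix (0.20 ± 0.09) overlapped between groups, and without deprived piece 5, where both were highest, their log2 fold changes were 0.19 and 0.13. Sox9, the factor that starts and maintains the glial programme, stood at 100, 98.8, 97.4, 84.4 and 86.1 CPM in control and 101, 104, 103, 124 and 117 CPM in deprived pieces (0.23 ± 0.08). The gap between the highest control and the lowest deprived piece was therefore narrow for Sox9 and Nfib, and wide for Tcf4. Emx2, a homeobox factor of the dorsal telencephalon, was at 17.4 to 22.6 CPM in control and 23.4 to 28.6 CPM in deprived pieces (0.38 ± 0.10), and the LIM factor Lhx2 had a log2 fold change of 0.19 ± 0.07. For the other members, Sox2, Dbx2, Hes5 and Pax6, it was 0.16 ± 0.09, 0.15 ± 0.17, 0.08 ± 0.09 and 0.07 ± 0.11. The list's median was between 0.186 and 0.246 when each library was left out in turn. The same factors had a median of 0.144 in unbound RNA. For Lhx2 it was 0.24 ± 0.06 in unbound and 0.20 in bound RNA of the same fit. The factors differed in enrichment: the log2 ratio of bound over unbound RNA was 0.05 ± 0.04 for Nfib and 0.24 ± 0.06 for Nfix. The list's median enrichment was 0.756. Which cells these messages came from was not tested.

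Intermediate filament genes, Glul and Aldoc also had higher values. Gfap was at 152, 158, 160, 105 and 146 CPM in controls 1 to 5 and at 162, 164, 210, 171 and 167 CPM in deprived pieces 1 to 5. The groups did not overlap, but control 4 was far below and deprived piece 3 far above the rest of its group, and the log2 fold change of 0.28 ± 0.10 was 0.19 without control 4 and 0.21 without deprived piece 3. Vimentin (Vim, 0.31 ± 0.09) and nestin (Nes, 0.25 ± 0.09), filaments of immature and reactive glia, overlapped between groups. In the list of reactive astrocyte genes, which holds these 3, 18 of 28 were tested, 8 were above and 10 below 0, and the median was -0.02. No other member had an unadjusted p under 0.05, so the share was 16.7%, beside 6.03% of all genes. Lcn2, Timp1, Cxcl10 and Steap4, strongly induced after brain injury, were under the filter, with at most 0.592 CPM in any piece. Glutamine synthetase (Glul), which turns glutamate into glutamine, was at 228 to 286 CPM in control and 275 to 346 CPM in deprived pieces (0.27 ± 0.08), and the glycolytic enzyme Aldoc had 0.22 ± 0.08. Their pathways did not lean the same way: 10 of 19 genes of glycolysis, lactate and glycogen were above 0 (median 0.0135, -0.0307 without control 4), and 4 of 15 of glutamate, GABA and potassium handling (median -0.0462, 0.0141 without deprived piece 2). Over all 23 astrocyte markers, 11 were above and 12 below 0 with a median of -0.00091. Gfap, Sox9, Glul and Aldoc were the 4 at an unadjusted p under 0.05 (17.4%, beside 6.03% of all genes). Aldh1l1 had 0.13 ± 0.08, and the interval for Slc1a3 ran from -0.18 to 0.18.

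**Figure D3:**
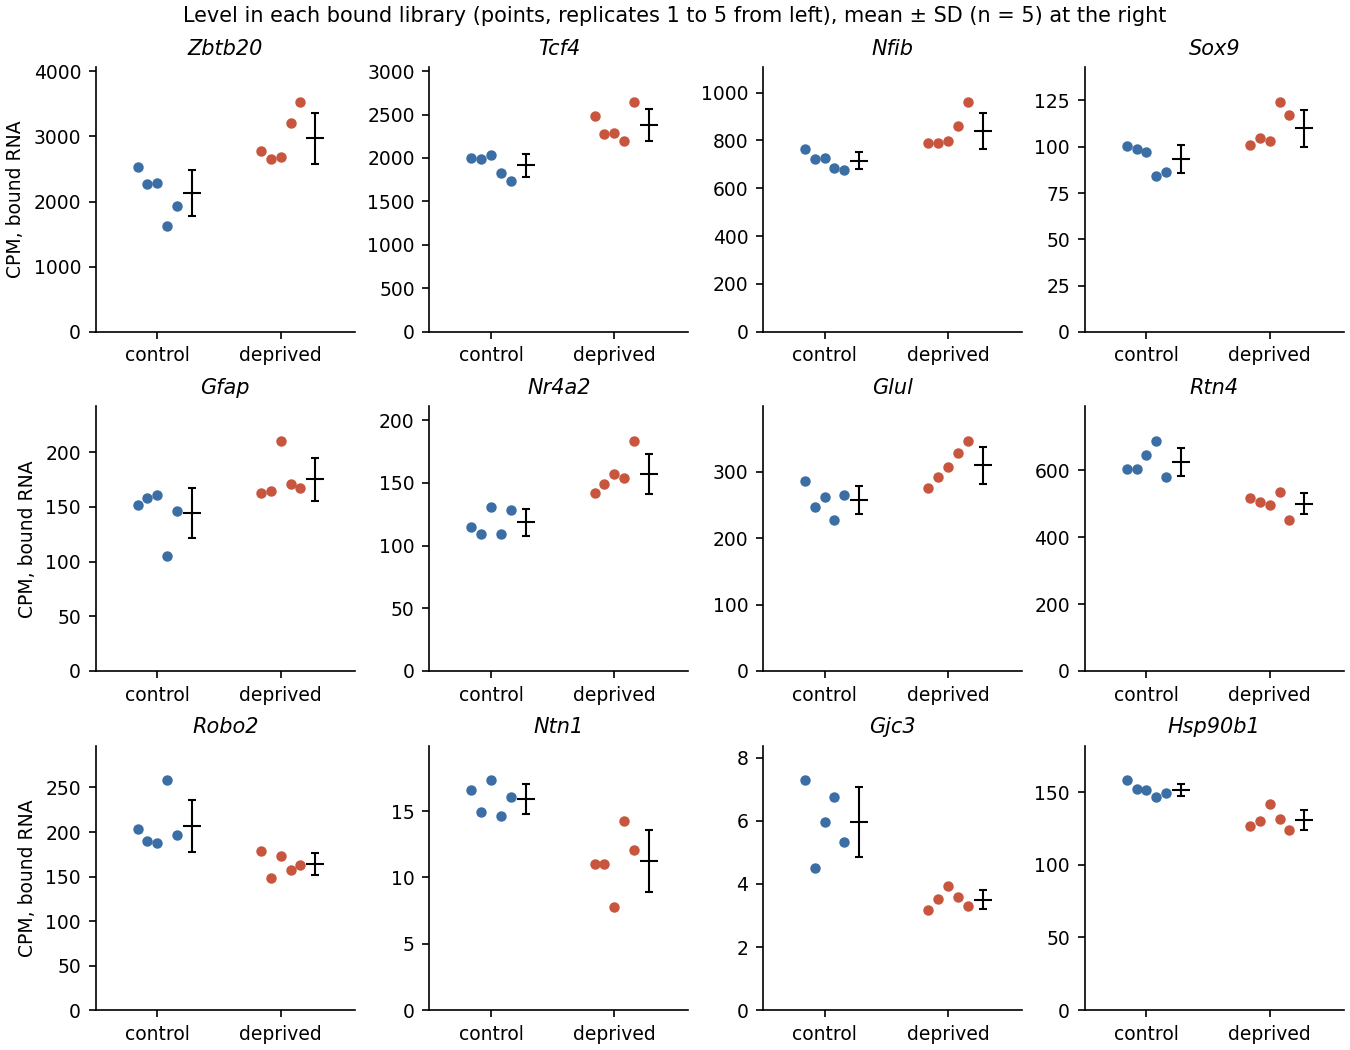
Level in CPM of 12 genes in each bound library, replicates 1 to 5 from left to right in each group, with the mean and SD (n = 5) at the right of the points. Zbtb20, Tcf4, Nfib, Sox9, Gfap and Nr4a2 lie higher in all 5 deprived than in all 5 control libraries, Rtn4, Robo2, Ntn1, Gjc3 and Hsp90b1 lie lower, and Glul overlaps.

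Genes enriched at least 2-fold in bound RNA were more often above than below 0. The set is not one of astrocyte genes alone, since it holds Nefl and Nefm, and Glul and Sox9 fall short of it (log2 ratios of 0.93 and 0.97). Of 1385 such genes 908 were above 0 and 477 below, with a median of 0.0972. At an unadjusted p under 0.05 there were 145 higher and 14 lower, together 11.5% beside 6.03% of all genes. Without overlap, 21 lay above and 1 below the controls, beside 0.645% and 0.56% of all genes. Enrichment was measured in these same libraries, which favours genes that are high in bound deprived pieces. With enrichment taken from control libraries alone, 689 of 1109 genes were above 0 with a median of 0.0708, and 118 were higher against 24 lower at an unadjusted p under 0.05. Genes at least 2-fold lower in bound RNA leaned the other way. Of 115 such genes 26 (22.6%, beside 50.1% of all genes) were above 0 and 89 below, with a median of -0.136. From control libraries alone that set had 50 genes above and 52 below 0, with a median of -0.00918. Library by library, the median of the 1385 genes relative to the control mean was 0.0955, -0.0384, -0.028, 0.0281 and -0.00175 in controls 1 to 5 and 0.159, -0.0388, 0.213, 0.0724 and 0.1 in deprived pieces 1 to 5. Deprived piece 2 thus lay at the lower end of the controls and control 1 above deprived piece 4. In unbound RNA the same genes had a median of 0.0124. The summed astrocyte markers were at 3502 to 4240 CPM in control and 3557 to 4469 CPM in deprived pieces, and 10 pan-neuronal markers at 10590 to 12590 CPM and 11200 to 13800 CPM. That sum is carried in part by Nefl (0.28 ± 0.13) and Nefm (0.32 ± 0.14), and 7 of the 10 members were below 0, with a median of -0.0514, or -0.0977 without deprived piece 5. The part of RNA from other cells in this result was not tested.

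Genes of the activity and survival response gave a mixed picture. Among 21 immediate early genes tested, 16 were above 0, 3 of them (14.3% of the list, beside 6.03% of all genes) at an unadjusted p under 0.05, and the median was 0.117. Those 3 were the nuclear receptors Nr4a2 and Nr4a3 and the AP-1 subunit Fosl2. Nr4a2 (GRCm38 chr2:57106830-57124003, minus strand) was at 115, 109, 131, 109 and 128 CPM in controls 1 to 5 and at 142, 149, 157, 154 and 184 CPM in deprived pieces 1 to 5, with no overlap (0.41 ± 0.08). Nr4a3 (0.41 ± 0.12) and Fosl2 (0.24 ± 0.07) overlapped. Nr4a2 is also a gene of deep-layer cortical neurons, its enrichment in bound RNA was -0.08, and its log2 fold change in unbound RNA was 0.29 ± 0.08. The classic activity genes did not lean the same way: Egr1 was at 59.5 to 74.3 CPM in control and 60.5 to 67.3 CPM in deprived pieces (-0.04 ± 0.07), Npas4 had -0.27 ± 0.19 and Fos, at 2.66 to 5.82 CPM, had -0.09 ± 0.23.

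Among 18 apoptosis genes 15 were above 0, with a median of 0.0743 that was 0.0337 without control 4 and 0.136 without deprived piece 4. At an unadjusted p under 0.05 there were 2 (11.1%, beside 6.03% of all genes). Bcl2l11, which encodes the pro-death protein Bim, stood at 17.2, 18.4, 17.1, 15.1 and 15.1 CPM in controls 1 to 5 and at 21.4, 21.8, 24.2, 19.5 and 26.9 CPM in deprived pieces 1 to 5 (0.45 ± 0.10, no overlap). Its antagonist Bcl2 was at 69.1 to 88.1 CPM in control and 87.7 to 106 CPM in deprived pieces (0.25 ± 0.08), overlapping by a single control. Atf5, a stress-responsive factor expressed in glial progenitors, ranged from 7.17 to 10.2 CPM in control and from 10.9 to 14.5 CPM in deprived pieces (0.53 ± 0.13). Exons of Il4i1 and Nup62 overlap it. Other genes with the smallest p among the higher ones were the ferritin receptor Ncoa4 (0.34 ± 0.09), the corepressor-associated gene Gse1 (0.39 ± 0.10), the F-box gene Fbxl18 (0.33 ± 0.08), the aminosugar enzyme Gnpda1 (0.53 ± 0.13) and the RNA-binding protein gene Rbms2 (0.56 ± 0.14). Of these 5, Rbms2 overlapped between groups. The log2 ratio of bound over unbound RNA was 3.90 for Gse1 and 3.24 for Ncoa4, above the 2.59 of Gfap, as was that of the neuronal gene Nefl. Which cells these messages came from was not tested. The largest shifts without overlap further included the calcium-regulated factor Nfatc1 (0.51 ± 0.13), Fam43a (0.48 ± 0.12) and the formin Fmnl3 (0.47 ± 0.13).

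Genes of growth factor signalling were mostly above 0. Of 18 genes of FGF and EGF signalling 15 were above 0, 3 of them (16.7% of the list, beside 6.03%) at an unadjusted p under 0.05, with a median of 0.095 that was 0.0428 without deprived piece 5. The 3 were feedback inhibitors and a target factor of the pathway. Spred2, an inhibitor of the Ras to ERK cascade, ranged from 128 to 142 CPM in control and from 147 to 170 CPM in deprived pieces (0.21 ± 0.07). Spry2 had 0.24 ± 0.08 with overlap, and the ETS factor Etv4, at 3.52 to 4.38 CPM against 4.44 to 7.31 CPM, had 0.48 ± 0.17. Id1, a target of BMP receptors that holds back differentiation, was at 14.8 to 16.4 CPM in control and 16.7 to 23.4 CPM in deprived pieces (0.36 ± 0.11), while the 28 TGF-beta and BMP genes had a median of 0.0337 (0.00103 without deprived piece 5), with 17 above and 11 below 0.

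Wnt and fractalkine genes, which have been studied in this lesion, had few values with an interval that left out 0. Of 20 genes for Wnt ligands and their release 12 were tested, 5 above and 7 below 0, and none had an unadjusted p under 0.05. Wnt7b was at 16.7, 13.6, 17.1, 13.8 and 17.4 CPM in control and 18.4, 17.8, 17.2, 16.8 and 18.4 CPM in deprived pieces (0.18 ± 0.10), with overlap. Wnt5a had 0.05 ± 0.15 and Wnt7a -0.10 ± 0.15. All 25 receptor and co-receptor genes were tested, 9 above and 16 below 0, again with none at an unadjusted p under 0.05. For the co-receptor Lrp6 the interval was -0.20 to 0.11, and for Fzd2 (0.17 ± 0.21) deprived piece 5 alone, at 11.1 CPM against 4.53 to 5.50 CPM in the other 4, set the sign, which was -0.11 without it. Transduction genes and targets leaned higher, 13 of 16 above 0 with a median of 0.118 (0.0571 without deprived piece 5). The single gene at an unadjusted p under 0.05 (6.25% of the list, beside 6.03% of all genes) was the beta-catenin cofactor Bcl9 (0.19 ± 0.08). The feedback target Axin2 had 0.09 ± 0.11. Of 13 antagonists tested 7 were above and 6 below 0, and 1 (7.69%, beside 6.03% of all genes) had an unadjusted p under 0.05. That gene, the secreted Frizzled-related protein gene Sfrp1, was at 97.5, 84.8, 87.4, 105 and 95.1 CPM in control and 82.5, 71.9, 81.1, 96.0 and 84.7 CPM in deprived pieces, with overlap (-0.18 ± 0.08, interval -0.35 to -0.01). All 4 fractalkine genes were below 0, none at an unadjusted p under 0.05. The receptor gene of microglia, Cx3cr1, had the largest of these values (-0.44 ± 0.24, interval -0.93 to 0.06). Cx3cl1, the fractalkine ligand, was at 20.3 to 26.1 CPM in control and 18.0 to 24.4 CPM in deprived pieces (-0.11 ± 0.11). The sheddase Adam10 had -0.04 ± 0.08, so a change of Cx3cl1 or Adam10 beyond 1.5-fold lies outside its 95% interval (-0.34 to 0.11 and -0.20 to 0.12).

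Guidance genes were among those with the smallest p on the lower side. Of 16 Slit, Robo, netrin and Nogo genes 7 were above and 9 below 0, and 3 (18.8%, beside 6.03% of all genes) were at an unadjusted p under 0.05. For all 3, every deprived library lay below every control library, beside 0.56% of all genes. Rtn4, which encodes the outgrowth inhibitor Nogo, stood at 604, 603, 646, 687 and 580 CPM in controls 1 to 5 and at 516, 504, 496, 533 and 450 CPM in deprived pieces 1 to 5 (-0.32 ± 0.07). Its level was lower in bound than in unbound RNA by a log2 ratio of -1.09, and exons of Eml6 overlap it. Robo2, a Slit receptor of axons, was at 204, 190, 188, 258 and 196 CPM in control and 179, 148, 173, 157 and 162 CPM in deprived pieces (-0.34 ± 0.09), with control 4 far above the rest. The attractant netrin-1 (Ntn1) was at 14.7 to 17.3 CPM in control and 7.79 to 14.2 CPM in deprived pieces (-0.50 ± 0.13). The median of the list was -0.0842 and -0.0026 without control 4. Others with the smallest p were the endoplasmic reticulum chaperone gene Bcap29 (-0.55 ± 0.12), the serine carrier family gene Serinc1 (-0.30 ± 0.07), the glucosyltransferase B3glct (-0.35 ± 0.09), the heparan sulfatase Sulf1 (-0.47 ± 0.12), the bicarbonate transporter Slc4a10 (-0.28 ± 0.07) and the cadherin Cdh8 (-0.27 ± 0.07), each without overlap. Kcnj9 (-0.39 ± 0.11), Ccne2 (-0.36 ± 0.13) and Clgn (-0.35 ± 0.13) were further large differences without overlap. Fign, a microtubule-severing enzyme, had the largest fold change at this level (-1.08 ± 0.26), but its control values spread from 10.5 to 38.5 CPM and overlapped the 8.36 to 12.9 CPM of the deprived pieces, and it was -1.39 ± 0.35 in unbound RNA. Most of these lower genes were, like Rtn4, depleted in bound RNA. Their log2 ratios of bound over unbound RNA were -1.03 for Serinc1, -0.92 for Clgn, -0.73 for Cdh8 and -0.63 for Slc4a10. Bcap29 and Ccne2 had -0.57, Robo2 -0.42, Kcnj9 -0.34, B3glct -0.31 and Sulf1 -0.11. The ratio was above 0 for Ntn1 (0.40) and Fign (0.66). The cells of origin of these messages were not tested.

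Folding and export genes were slightly lower. Of 21 stress genes 15 were below 0, 3 of them at an unadjusted p under 0.05, against 1 higher gene, Atf5 (together 19%, beside 6.03% of all genes). Hsp90b1, the HSP90 of the endoplasmic reticulum, stood at 158, 152, 151, 147 and 150 CPM in controls 1 to 5 and at 126, 130, 142, 131 and 124 CPM in deprived pieces 1 to 5 (-0.21 ± 0.06, no overlap), and its partner Hspa5 had -0.23 ± 0.08 with overlap. Both were depleted in bound RNA, with log2 ratios of bound over unbound RNA of -0.66 and -0.36. Of 21 sterol synthesis genes 14 were below 0, 3 of them (14.3% of the list, beside 6.03% of all genes) at an unadjusted p under 0.05. No gene of that list was higher at that p, and its median was -0.0333 (-0.0141 without control 4). All 8 lipoprotein and lipid export genes were below 0 with none at an unadjusted p under 0.05 and a median of -0.131 (-0.0783 without control 1). For the receptor Lrp1 (-0.36 ± 0.23) controls ran from 287 to 747 CPM and deprived pieces from 238 to 522 CPM, and the log2 fold change was -0.14 without control 4. Lrp1 is also on the engulfment list, in which 13 of 15 genes were below 0 with none at an unadjusted p under 0.05 and a median of -0.107, or -0.0537 without deprived piece 2. The engulfment receptors named for astrocytes, Megf10 and Mertk, had intervals of -0.26 to 0.25 and -0.34 to 0.29.

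Lists of contact proteins between cells differed in their medians. Connexins had -0.175, below the interquartile range of all genes tested (-0.108 to 0.106), and -0.324 without deprived piece 5. Of the 5 connexins all were below 0, and Gjc3, which encodes connexin 29 of the oligodendrocyte lineage, was at 7.29, 4.50, 5.95, 6.75 and 5.34 CPM in controls 1 to 5 and at 3.18, 3.52, 3.93, 3.58 and 3.30 CPM in deprived pieces 1 to 5 (-0.77 ± 0.17). The groups did not overlap, at a low level. The astrocyte connexin Gja1, which couples astrocytes into a network, had -0.12 ± 0.09. For the oligodendrocyte lineage list, 5 of 11 genes were above and 6 below 0. Lower at an unadjusted p under 0.05 were 2 (18.2%, beside 6.03% of all genes), Gpr17 (-0.28 ± 0.11) and Enpp6 (-0.34 ± 0.16), both of differentiating oligodendrocytes, and 0 were higher. The list had summed levels of 291 to 336 CPM in control and 282 to 318 CPM in deprived pieces, and the part of such cells in the value of Gjc3 was not tested. Synaptic adhesion genes were below 0 in 12 of 14 cases, all within the spread, with a median of -0.0447 (-0.0191 without deprived piece 2). Of 15 secreted synapse-organising genes 6 were above and 9 below 0, and the synaptogenic factor Sparcl1 had an interval of -0.19 to 0.15 and Chrdl1 one of -0.31 to 0.08. The actin linkers of fine processes were above 0 in 8 of 10, with the scaffold gene Slc9a3r1 at 0.24 ± 0.08. The chloride importer Slc12a2, at 49.6 to 63.8 CPM in control and 41.6 to 48.9 CPM in deprived pieces (-0.21 ± 0.08), was -0.13 without control 1, which held the highest value.

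**Figure D4:**
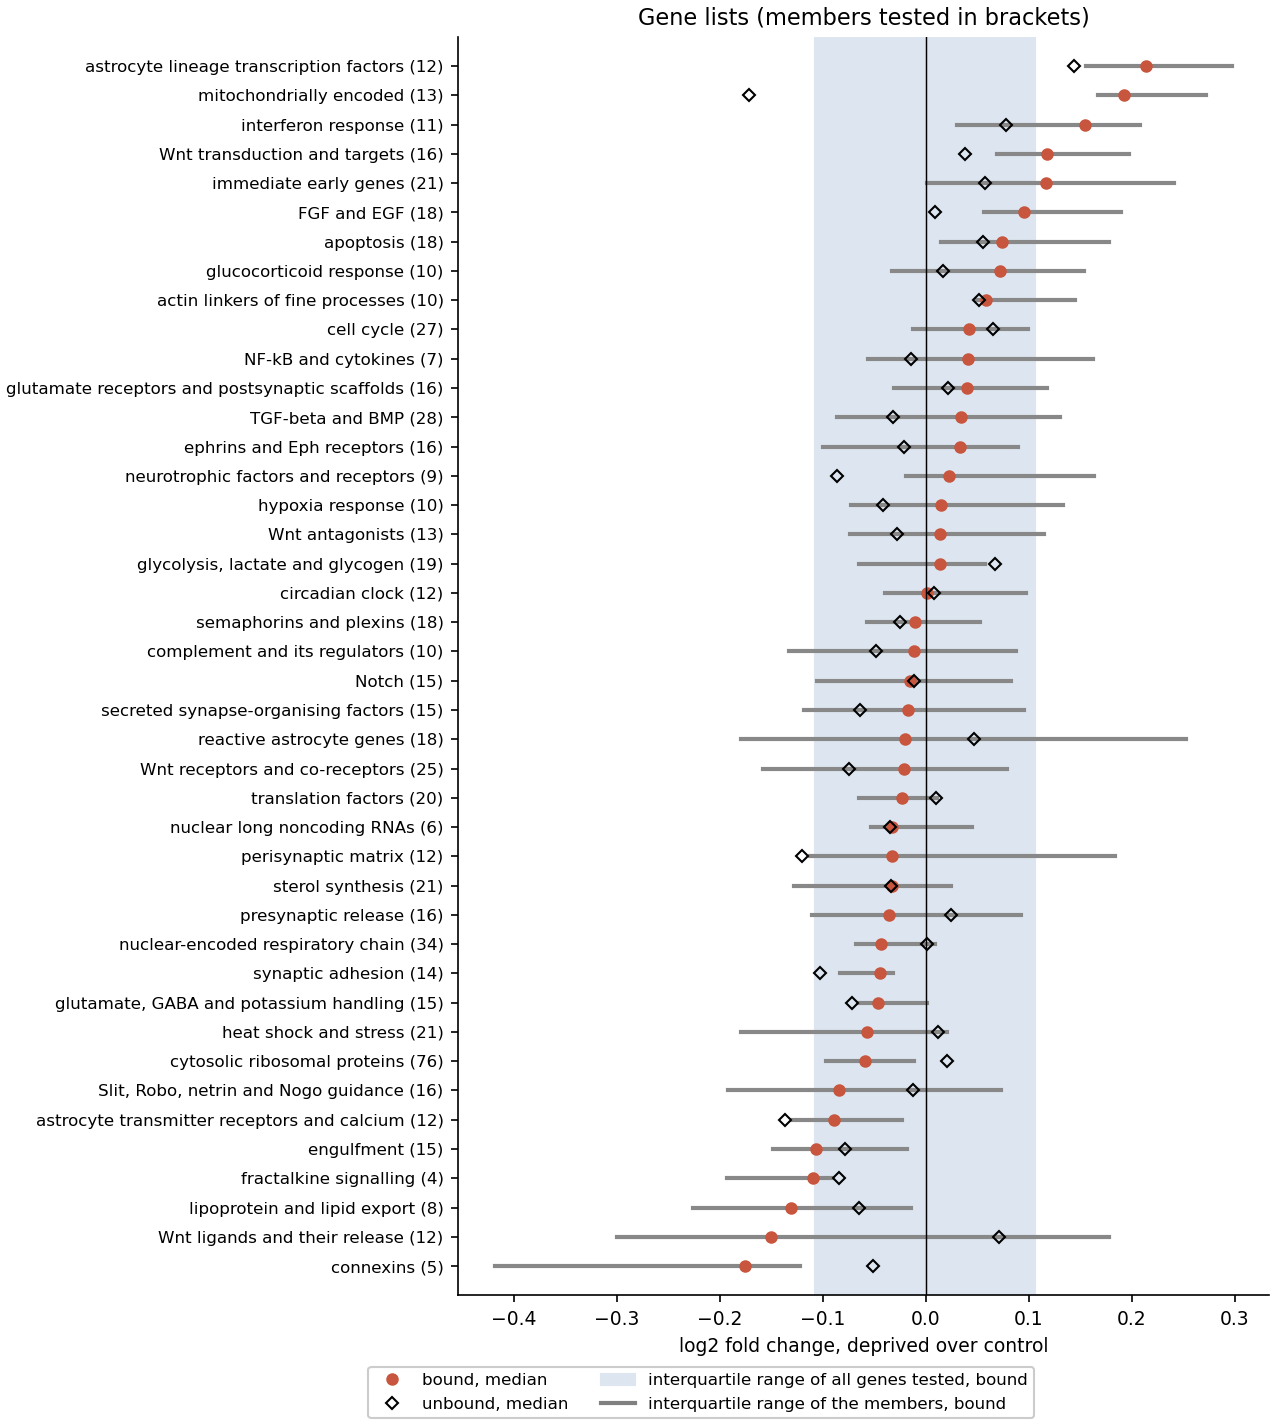
Median log2 fold change of deprived over control for 42 gene lists in bound RNA (red points, line for the interquartile range of the members) and in unbound RNA (open diamonds), with the interquartile range of all genes tested shaded and the number of members tested in brackets. The list of astrocyte lineage transcription factors has the highest median, 0.21, and connexins the lowest, -0.175. Most list medians lie inside the shaded band.

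Genes of the translation and respiratory machinery moved with single libraries. Cytosolic ribosomal protein genes were below 0 in 62 of 76 cases with a median of -0.0594, which was -0.0079 without deprived piece 5. All 13 mitochondrially encoded genes were above 0 with a median of 0.192, and none had an unadjusted p under 0.05. The pieces differed widely: mt-Nd3, a subunit of complex I, was at 80.3, 52.0, 56.4, 116 and 97.6 CPM in controls 1 to 5 and at 189, 88.5, 156, 143 and 17.0 CPM in deprived pieces 1 to 5. The list's median was 0.417 without deprived piece 5 and 0.03 without deprived piece 1, and -0.172 in unbound RNA. The 34 nuclear-encoded respiratory chain genes had a median of -0.0434 (0.0162 without deprived piece 5). Cell cycle genes, in cells that still divide at this age, had a median of 0.0416 (0.0119 without control 4) with 19 of 27 above 0. Among them the kinetochore motor gene Cenpe was at 148 to 171 CPM in control and 172 to 237 CPM in deprived pieces (0.29 ± 0.08). Its log2 ratio of bound over unbound RNA was 2.23 ± 0.06, beside a list median of 0.328, so its bound level is not typical of the list.

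Markers of tissue next to the barrel cortex varied between pieces and moved with several of the values above. The summed level of 5 choroid plexus and ependyma markers, carried mainly by Ttr, was 22.1 CPM in control 4 and 35.7 CPM in deprived piece 3, against 511 to 952 CPM in the other controls and 592 to 713 CPM in the other deprived pieces. Control 4 was also low for Nrp2, a semaphorin receptor, at 26.8 CPM against 104 to 114 CPM in the other controls and 119 to 149 CPM in deprived pieces. Its log2 fold change, 0.56 ± 0.24, was 0.32 without control 4, and that of Sertm1, 0.49 ± 0.18, was 0.30. Thalamic markers summed to 354 CPM in control 3 and 62.6 CPM in control 4, against 136 to 146 CPM in the other controls and 110 to 147 CPM in deprived pieces. Tcf7l2, a Wnt effector and a thalamic marker, was at 157 CPM in control 3 and 27.9 to 33.6 CPM in the other controls, and its log2 fold change of -0.65 ± 0.38 was 0.21 without control 3.

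Striatal markers had lower values in deprived pieces: 9 of 10 were below 0, 6 (60%, beside 6.03% of all genes) at an unadjusted p under 0.05, with a median of -0.339. Their sum was 318 and 311 CPM in controls 4 and 5, 198 to 238 CPM in controls 1 to 3 and 183 to 243 CPM in deprived pieces, and without controls 4 and 5 the median was -0.115. The dopamine receptor gene Drd1 was at 21.4, 21.0, 22.5, 30.9 and 21.9 CPM in control and 19.6, 19.7, 16.1, 19.5 and 17.3 CPM in deprived pieces (-0.35 ± 0.11), and the tachykinin gene Tac1 had -0.54 ± 0.15. The count of genes past the adjusted threshold was 0 without control 4 and deprived piece 3, without controls 3 and 4, and without controls 4 and 5, with 1101, 713 and 853 genes at an unadjusted p under 0.05. Without controls 4 and 5 the median of the lineage factors was 0.184. The part of dissection in the differences between groups was not tested, and no markers of the hippocampus were listed. Microglial markers summed to 107 to 109 CPM in control and 102 to 117 CPM in deprived pieces, and 12 of 18 tested were below and 6 above 0. At an unadjusted p under 0.05 there were 2 (11.1%, beside 6.03% of all genes), 1 higher and 1 lower, the latter P2ry12. P2ry12, a purinergic receptor of resting microglia, was at 3.98 to 5.27 CPM in control and 2.00 to 3.93 CPM in deprived pieces (-0.69 ± 0.21), and the list's median of -0.194 was -0.0587 without deprived piece 5.

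**Figure D5:**
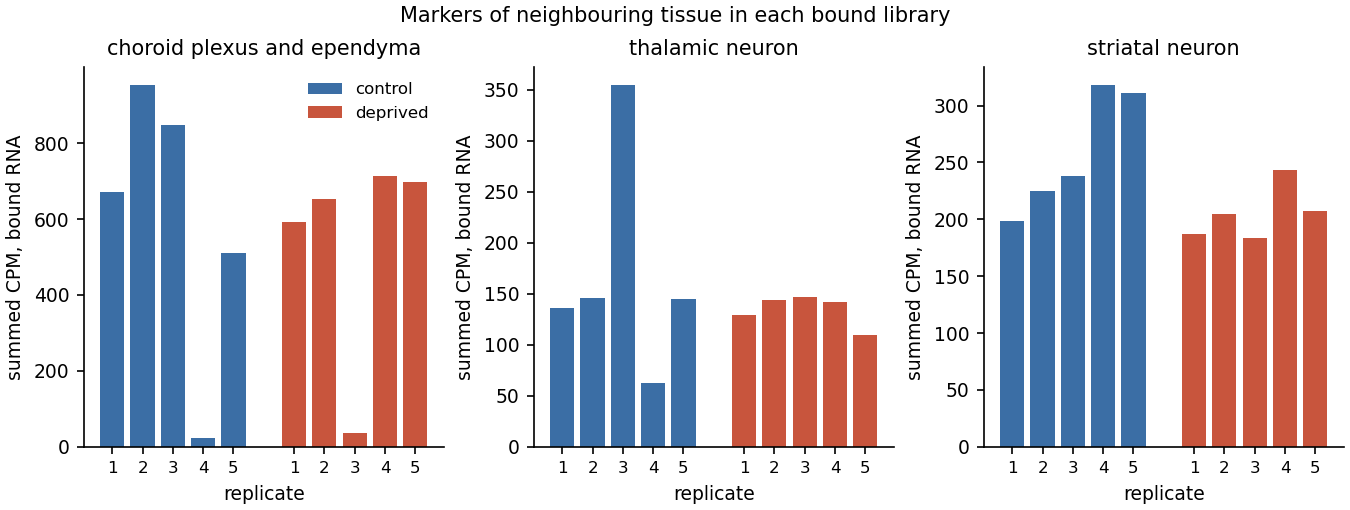
Summed level in CPM of markers of choroid plexus and ependyma, thalamic neurons and striatal neurons in each bound library (bars, replicates 1 to 5, blue control and red deprived). Control 4 and deprived piece 3 lack most of the choroid plexus signal, control 3 holds the highest thalamic signal at 354 CPM, and controls 4 and 5 hold the highest striatal signal.

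Whether deprivation acted on bound RNA otherwise than on the unbound RNA of the same pieces was tested as an interaction in a fit of all 20 libraries of the line. Of 18324 genes 0 (0%) passed, 546 had an unadjusted p under 0.05, and DESeq2's Wald test also called 0, with 526 at an unadjusted p under 0.05. That fit does not tie the fractions of a piece. With the piece as a replicate block 1 gene was called, Srp54b, whose reads may be shared with near-identical copies, and 818 had an unadjusted p under 0.05. The smallest interaction p among higher genes belonged to the ornithine carrier Slc25a15 (bound minus unbound 0.60 ± 0.16), the helicase Blm (0.45 ± 0.13) and the centriole gene Stil (0.56 ± 0.17). For each the fold change was above 0 in bound and below 0 in unbound RNA, for Blm 0.30 ± 0.09 and -0.14 ± 0.10. Blm was also highly enriched in bound RNA, with a log2 ratio of 2.99 ± 0.06. Among lower genes the smallest interaction p belonged to the ribosome assembly gene Utp3 (-0.27 ± 0.07), the exocyst subunit Exoc1 (-0.27 ± 0.08) and the importin Ipo5 (-0.28 ± 0.09). Exoc1 was at 58.3, 58.2, 62.9, 58.2 and 58.6 CPM in bound controls 1 to 5 and at 55.5, 47.5, 52.0, 47.2 and 49.5 CPM in bound deprived pieces 1 to 5, without overlap, and had 0.05 ± 0.06 in unbound RNA. For the genes that led the comparison in bound RNA, the difference between fractions was 0.22 ± 0.17 for Zbtb20, 0.16 ± 0.09 for Tcf4, 0.12 ± 0.12 for Nr4a2, -0.25 ± 0.09 for Rtn4 and 0.57 ± 0.20 for Atf5, each with an adjusted interaction p of 0.999 by edgeR's quasi-likelihood test. These SE and p come from the fit that does not tie the fractions, although 8 of 10 bound libraries were closest to their own unbound library. They do not show that deprivation acted alike on both fractions.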

How the data were processed

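Raw read counts per Ensembl gene were deposited by the authors as 1 table for the astrocyte line, 47971 genes by 20 libraries. The submitters' processing notes name featureCounts 2.0.0 and the aligner HISAT2 2.2.0. They also list FastQC 0.11.9, cutadapt 2.9, Trim Galore 0.6.4, and mm10 and GRCm38 as builds. Their settings and the strand used in counting are not given in the sources used here. Per the labels' protocols, cDNA was amplified from nanogram amounts of RNA (NuGEN Ovation V2) and libraries were made with Nextera XT. No molecular identifiers are named there.

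Counts were tested with edgeR 4.0.16 (R 4.3.3): filterByExpr, TMM scaling, quasi-likelihood F test, two-sided, Benjamini-Hochberg adjustment over all genes tested, threshold 0.05. Deprived and control bound libraries alone entered the deprivation comparison, with no covariate. Enrichment and interaction were fitted over all 4 groups of the line. SE is the log2 fold change over the root of F, and intervals are 95%. Log2 CPM used a prior count of 2. Positions and exon overlaps came from GENCODE vM21 of GRCm38, which held 47788 of the gene IDs. The code was also run on simulated counts to check its estimates, and the share of set changes that it recovers is not given here.

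The members, 12 marker lists and 42 gene lists were chosen with earlier results of these data known. Lists are described by counts and medians, with no test. Named genes were all that passed or, since fewer than 20 did, the 10 per direction with the smallest p and 8 per direction with the largest change among genes without overlap, at a mean of at least 3 log2 CPM, up to 2 members per list with the smallest p, 3 interaction genes per direction and a fixed set. Of 162 genes that met this rule 80 are described, chosen with their values known. Outside the rule, 9 list members were named after their values were seen: Nfia, Nfib, Nfix, Lhx2, Emx2, Nr4a3, Etv4, Hspa5 and Nefl, besides genes given with their whole list.

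The 2 libraries of a group that were most alike differed beyond sampling noise (chi-square per degree of freedom 8.59). Of the 10 bound libraries 8 were closest to the unbound library of their own number. Alternatives were DESeq2 1.42.0 size factors and Wald test, limma 3.58.1 voom with sample weights, no filter, a filter of 1 CPM in 5 libraries, sex, the replicate number, all 4 groups, females only and each library left out. After seeing the data, fits without pairs of libraries that stood apart in markers of neighbouring tissue, and enrichment from control or deprived libraries alone, were added. The tables of the microglial lines were not used here.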

Additional observations from a re-analysis of the deposited data

Results flagged for a closer look

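Within each group of 5 bound libraries, the highest or lowest value was set against the rest by Dixon's test, for 6 library measures, 12 marker sums and the 89 genes named. Of 214 groups checked 17 held a library beyond the critical value of 0.71, where chance alone flags about 1 in 20. Deprived piece 5 was far out on the first principal component (71.1, next 2.39). Deprived piece 3 was low in the summed choroid plexus and ependyma markers (35.7 CPM, next 592), and control 3 was high in the summed thalamic markers (354 CPM, next 146) and in Tcf7l2 (157 CPM, next 33.6). Control 4 was low in Gfap (105 CPM, next 146), Nrp2 (26.8 CPM, next 104) and Sertm1 (19.7 CPM, next 47.1), and high in Robo2 (258 CPM, next 204) and Drd1 (30.9 CPM, next 22.5). Deprived piece 3 was high in Gfap (210 CPM, next 171). Control 3 was low in Npas4 (4.80 CPM) and Etv4 (3.52 CPM) and high in Exoc1 (62.9 CPM). Control 1 was low in Fmnl3 (6.24 CPM) and high in Slc12a2 (63.8 CPM). Deprived piece 5 was high in Fzd2 (11.1 CPM, next 5.50) and Bcl9 (181 CPM, next 146). Of the 17, control 4 accounts for 5, control 3 for 5, deprived piece 5 for 3, deprived piece 3 for 2 and control 1 for 2.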

How the results depend on the processing

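The count of 0 genes in the bound comparison was also 0 under DESeq2 size factors, voom, sex as a term, the stricter filter, all 4 groups, females only and with each library left out in turn, where 953 to 1277 genes had an unadjusted p under 0.05. It was 7 with DESeq2's Wald test and 85 without the filter on low counts, where 19 of the genes named here passed, and the cause was not tested. The interaction count was 15 without the filter and 1 with a replicate block for the piece, the gene Srp54b (4.51 ± 0.63 on the log2 scale), whose reads may be shared with near-identical copies. A replicate block gave 0 calls in the bound comparison. Same-numbered deprived and control libraries correlated between -0.172 and 0.0959, with 0 of 5 above 0.1 and 5 of 10 libraries closest to their own number. These values do not settle whether the numbers are pairs. The numbers were not taken as pairs because the labels do not name the animal. The 10838 genes that differed between bound and unbound RNA stayed within 1.5 times of that count under all alternatives. Signs of small fold changes turned with single libraries left out, over ranges of -0.0744 to 0.0582 for Slc1a3, -0.21 to 0.0440 for Fos, -0.0831 to 0.0024 for Egr1, -0.0784 to 0.0953 for Megf10, -0.106 to 0.0865 for Mertk, -0.0628 to 0.0406 for Sparcl1, -0.11 to 0.15 for Wnt5a, -0.11 to 0.26 for Fzd2, -0.82 to 0.21 for Tcf7l2 and -0.0797 to 0.00626 for Adam10. With females only it turned for Slc1a3 (0.0315), Fos (0.0289), Gja1 (0.0114), Megf10 (0.0026), Wnt7a (0.0787), Fzd2 (-0.0723) and Axin2 (-0.0407). Without controls 4 and 5 it turned for Slc1a3 (0.0048), Egr1 (0.0367), Lrp1 (0.0208), Megf10 (0.13) and Sparcl1 (0.0273). Without controls 3 and 4 it turned for Mertk (0.0595) and Tcf7l2 (0.17), and without control 4 and deprived piece 3 for Wnt5a (-0.0477). Slc1a3 and Megf10 also turned without the filter (0.0015 and 0.0026) and with all 4 groups (0.0082 and 0.0076), Megf10 with DESeq2 (0.0016) and Fzd2 with voom (-0.0138).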
